A study of Mus musculus with 12 samples.

Results

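Extracellular matrix and stromal cell genes were examined as a set of 43 genes: collagens, basement membrane proteins, matrix glycoproteins and proteoglycans, elastic fiber and crosslinking proteins, metalloproteinases with their inhibitors, and 5 genes that mark fibroblasts and pericytes. They were taken by symbol from a fixed list, and all 43 were found among the 52636 gene identifiers of the count table. RNA came from dissociated tumor and dissociated liver of female FVB/NJ mice. A 2 mm piece of an Fo5 tumor, from founder line 5 of MMTV-HER2 transgenic mice, had been placed in the mammary fat pad of each. The MMTV promoter directs the transgene to mammary epithelium, and the tumor line descends from a single founder. When tumors averaged 350 to 500 mm3, mice received 1 intravenous dose of vehicle, a buffer of histidine acetate, sucrose and Tween-20, or of 5 mg/kg anti-HER2(4D5-2C11)/CD3. This T cell-dependent bispecific antibody (TDB) binds both HER2 and CD3, a component of the T cell receptor. Tissue was collected after 24 h. The 4 groups (tumor vehicle, tumor TDB, liver vehicle and liver TDB) held 3 libraries each. All groups therefore came from tumor-bearing mice, liver included, and the libraries are numbered 1 to 3 within a group.

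The extracellular matrix is the protein scaffold between cells. Fibroblasts make much of the fibrillar collagen of a tissue, while endothelial cells, pericytes and epithelia lay down basement membranes built from type IV collagen, laminins and nidogens. Pericytes wrap small vessels and are marked by Rgs5 and Pdgfrb. In liver, hepatic stellate cells take the pericyte's place and are a main source of matrix in injury, while hepatocytes secrete fibronectin into plasma.

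Libraries held 18460159 to 29396324 counts. Hepatocyte markers (12 genes, summed) reached 143089 to 225216 CPM (counts scaled to library size, within each tissue) in liver and 10.1 to 60.6 CPM in tumor. Mammary tumor epithelium markers reached 22549 to 27266 CPM in tumor and 375 to 739 CPM in liver. The skeletal muscle list stood at 1.81 to 2.94 CPM in tumor and the adipocyte list at 0.0977 to 0.632 CPM, with the defining adipocyte genes Adipoq and Plin1 at 0 in all 3 vehicle tumors. In liver the adipocyte list stood at 918 to 2162 CPM, nearly all of it from Car3 (917 to 2160.3 CPM), while Plin1 was at 0.

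Per kb of exon, the set was led in vehicle tumors by Sparc, a collagen-binding glycoprotein, at 119 CPM per kb, then Thbs1 (thrombospondin 1) at 106, Col4a1 at 89.7, Col1a1 at 64.1 and Col4a2 at 48.8. The lowest were Des (desmin) at 1.03 CPM per kb, Pdgfra at 1.09 and Dcn (decorin) at 1.71. In vehicle livers the order began with Col18a1, the precursor of endostatin, at 96.0 CPM per kb, Sparc at 55.9, Fn1 (fibronectin) at 55.1, Dcn at 30.8 and Rgs5 at 19.8. The lowest there were Lox at 0.0195, Tnc (tenascin C) at 0.0342 and Col8a1 at 0.0635 CPM per kb. These are means of 3 libraries. Neighbours in the order often overlapped between libraries: Sparc ranged from 268 to 658 CPM in vehicle tumors and Thbs1 from 481 to 905 CPM.

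**Figure D1:**
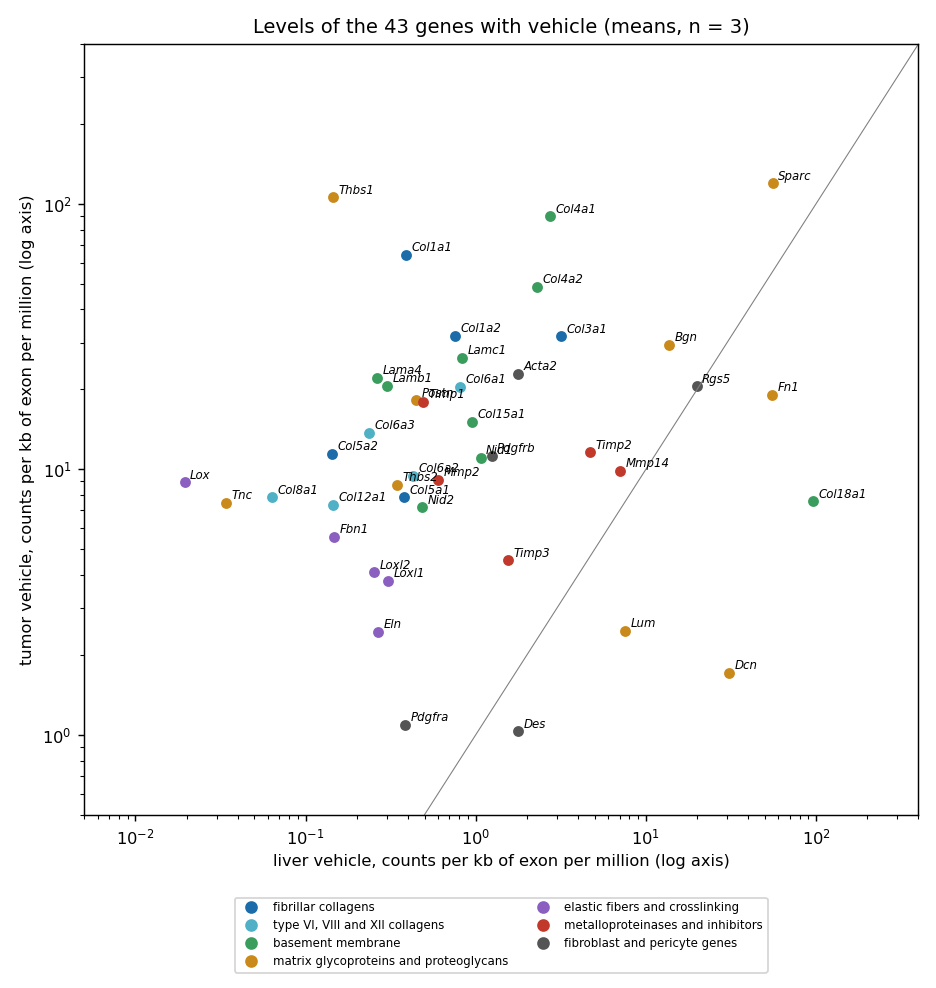
Level of each of the 43 genes in vehicle tumor (vertical) against vehicle liver (horizontal), as CPM per kb of exon on log axes, with 3 libraries averaged per point and colors for the role groups. Most genes lie above the line of equal level, while Col18a1, Fn1, Dcn, Lum and Des lie below it and Rgs5 lies on it.

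Most of the set stood higher in tumor than in liver with vehicle, but some of the best-known stromal genes did not. Col1a1, a chain of type I collagen, was at 328, 233 and 701 CPM in vehicle tumors and at 1.76, 2.69 and 3.18 CPM in vehicle livers. Thbs1 was at 542, 481 and 905 CPM in vehicle tumors and at 0.606, 0.392 and 1.64 CPM in vehicle livers, where few reads make any fold imprecise. Dcn, a small proteoglycan of fibroblasts, was at 7.92, 0.497 and 21.6 CPM in vehicle tumors and at 183, 176 and 179.8 CPM in vehicle livers. Lum (lumican), of the same proteoglycan family, was at 7.65, 0.677 and 9.75 CPM in vehicle tumors and at 17.1, 21.8 and 16.7 CPM in vehicle livers. Every vehicle liver was thus above every vehicle tumor for both, and both varied over more than 10-fold among the vehicle tumors. Rgs5 was close to equal, with 20.5 CPM per kb in tumor and 19.8 in liver. The other fibroblast and pericyte genes were not. Pdgfrb (11.2 in tumor and 1.24 in liver), Acta2 (22.9 and 1.77) and Pdgfra (1.09 and 0.383) stood higher in tumor, and Des (1.03 and 1.78) lower. CPM of the 2 tissues were scaled separately and tissue levels were not tested against each other.

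In tumor, most of the 43 genes moved together between libraries of a group, and their fold changes carried wide errors (below). Among vehicle tumors, library 3 was the highest for 42 of the 43 genes, against 35.3% of all 15454 genes tested in tumor; the exception was Lama4. Library 2 was the lowest for 33, against 33.7% of all genes. Among TDB tumors, library 3 was the highest for 39, against 35.2% of all genes, and library 1 the lowest for 32, against 32.4%. The median gene of the set stood 0.71 above its group mean on a log2(CPM + 0.5) scale in vehicle tumor 3, -0.19 from it in vehicle tumor 1 and -0.49 in vehicle tumor 2. In TDB tumors 1, 2 and 3 the medians were -0.36, -0.08 and 0.45, while medians over all genes lay within 0.01 of 0 in the tumor libraries.

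**Figure D2:**
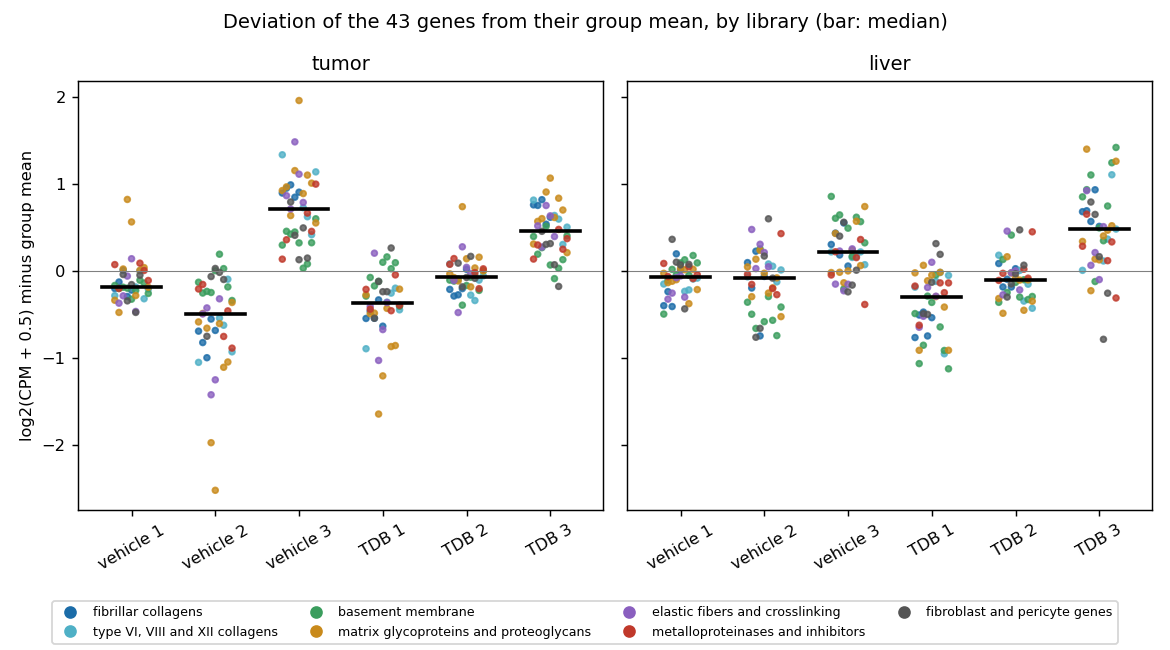
Deviation of each of the 43 genes from its group mean, log2(CPM + 0.5), for the 6 tumor libraries (left) and the 6 liver libraries (right), 1 point per gene colored by role group, black bars at the medians. Vehicle tumor 3 (median 0.71), TDB tumor 3 (0.45) and TDB liver 3 (0.48) stand above the rest of their groups.

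The fibrillar collagens show the size of this spread. Their summed level was 1048, 665 and 2195 CPM in vehicle tumors 1, 2 and 3 and 680.4, 835 and 1630.2 CPM in TDB tumors. Over the set, the median coefficient of variation among vehicle tumors was 47.5%, against 10.6% for all genes tested; among TDB tumors it was 32.8% against 8.03%. The median standard error of a log2 fold change was 0.42 for the set and 0.12 for all genes. In liver the corresponding errors were 0.39 and 0.32. Some other lists were also highest in vehicle tumor 3. Other fibroblast, stellate and pericyte markers summed to 471, 448 and 641 CPM in vehicle tumors 1 to 3, and endothelial markers to 226, 176 and 278 CPM. Macrophage markers, at 325, 225 and 342 CPM, and mammary tumor epithelium markers, at 25888, 22549 and 26069 CPM, were close in vehicle tumors 1 and 3. T cell markers were highest in vehicle tumor 1, at 5.72, 2.98 and 4.46 CPM. The part of these cells in the spread was not tested.

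In tumor, 5 of the 43 genes passed the test of TDB against vehicle (edgeR quasi-likelihood F test, Benjamini-Hochberg adjusted p under 0.05 over all genes). Timp3 rose, and Rgs5, Nid2, Eln and Col18a1 fell. Across all 15454 genes tested, 15.8% were called higher and 13.1% lower (28.8% in either direction), so 1 of 43 higher (2.33%) and 4 of 43 lower (9.3%) are both shares below the background. The log2 fold changes of the set had a median of -0.17, beside -0.02 over all genes, and 11 of 43 were above 0. With a library left out, this median moved both ways. It was 0.26 without vehicle tumor 3, with 2 genes called higher and 3 lower. It was -0.48 without TDB tumor 3, with 1 gene called higher and 3 lower. Without vehicle tumor 1 or 2 it was -0.32 or -0.41, and without TDB tumor 1 or 2 it was -0.08 or -0.15. The 95% interval of the log2 fold change lay wholly between -1 and 1 for 13 of the 43 genes and reached past it for the others. The 38 genes without a call thus include many for which a change of 2-fold was within the interval.

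**Figure D3:**
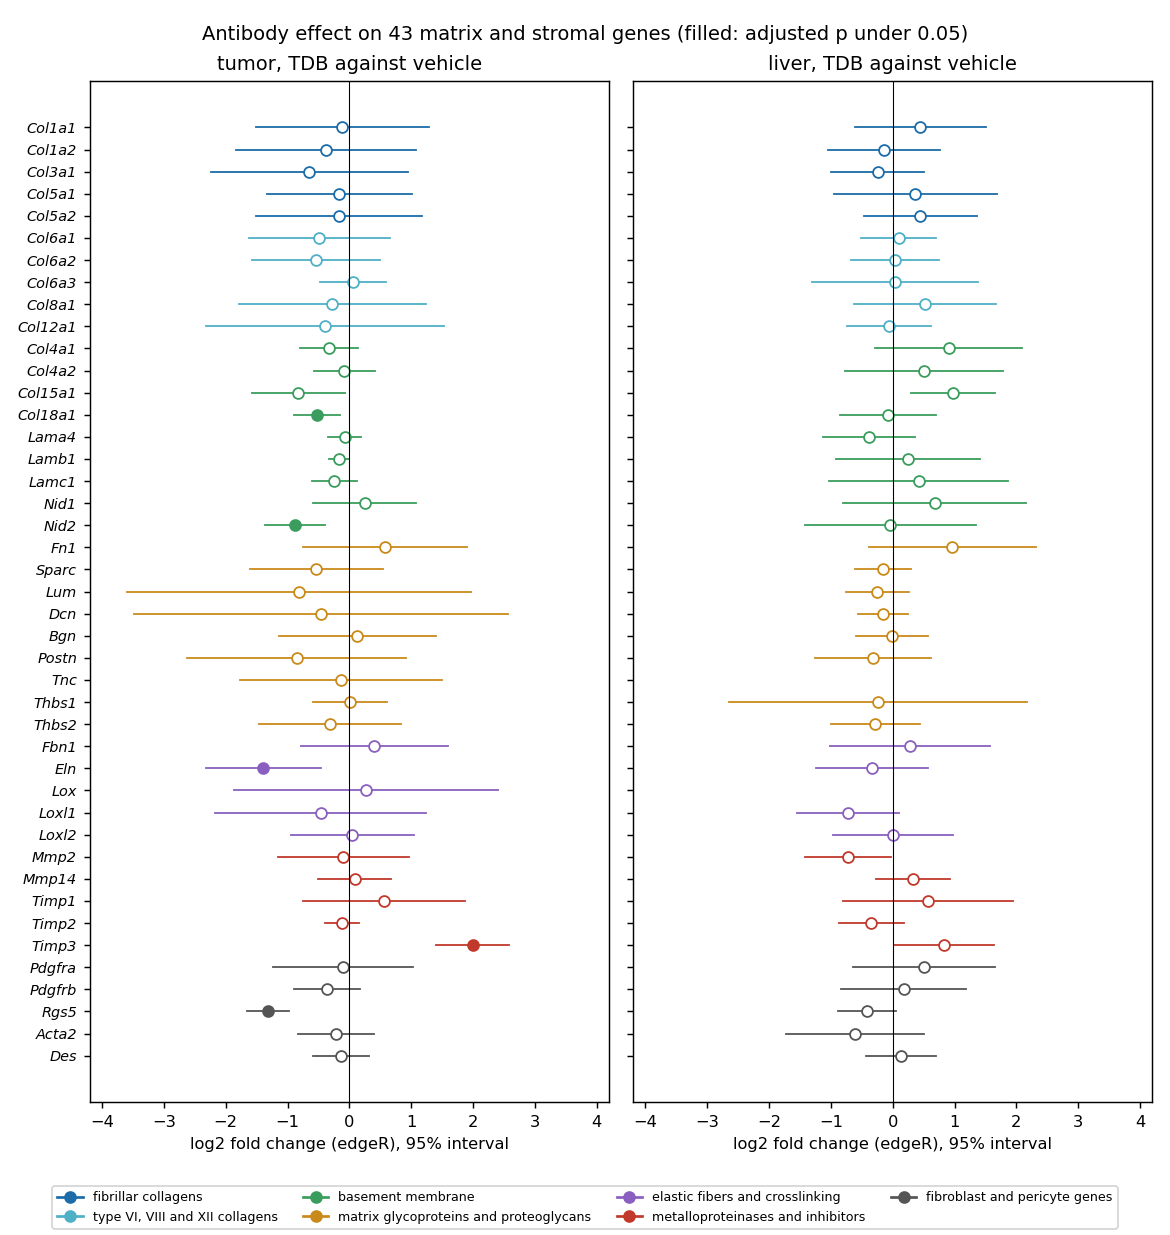
Log2 fold change (point) and 95% interval (line) of TDB against vehicle for each of the 43 genes in tumor (left) and liver (right), colored by role group; filled points passed the adjusted threshold of 0.05. In tumor Timp3 lies at 1.99 and Rgs5 at -1.32, both with short intervals, and the liver panel has no filled point (Tnc and Lox were too low to test there).

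Timp3, a metalloproteinase inhibitor that binds to the matrix, was the member with the largest change. It was at 31.6, 32.7 and 46.8 CPM in vehicle tumors (37.0 ± 8.49, SD, n = 3) and at 106, 159 and 177 CPM in TDB tumors (148 ± 36.9, SD, n = 3). Each treated tumor was above each control. The fold change was 3.98 (log2 1.99, SE 0.24, edgeR adjusted p = 0.00188), and it was called under every alternative run. The gene lies on chromosome 10, 86300372 to 86349506, plus strand (GRCm38). Its exons share 1733 bases with those of Syn3 on the opposite strand, which held 191 counts against 15119 for Timp3.

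The other inhibitors and the proteases showed no call. Timp2, the inhibitor that also helps to activate Mmp2, was at 47.3, 38.8 and 49.4 CPM with vehicle and 35.6, 43.6 and 45.5 CPM with TDB, which overlap. Within a library, the ratio of Timp3 to Timp2 was 0.669 to 0.948 in vehicle tumors and 2.98 to 3.90 in TDB tumors. Timp1, the secreted inhibitor often induced by inflammatory signals, was at 12.7, 7.23 and 28.0 CPM with vehicle and 17.4, 23.4 and 29.9 CPM with TDB. Its log2 fold change of 0.56 had an edgeR adjusted p of 0.478, and without vehicle tumor 3 it was 1.24 with an adjusted p of 0.0382. The gelatinase Mmp2 (log2 fold change -0.10) and Mmp14 (0.08), the membrane-bound enzyme that activates it, had adjusted p of 0.889 and 0.831.

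Rgs5, a regulator of G protein signaling used as a pericyte marker, had the lowest p of the set. It was at 83.4, 94.9 and 102 CPM in vehicle tumors (93.4 ± 9.28, SD, n = 3) and at 31.3, 35.1 and 46.1 CPM in TDB tumors (37.5 ± 7.69, SD, n = 3). The groups were far apart, and vehicle tumor 3 did not stand out for this gene. The level was 2.50-fold lower with TDB (log2 fold change -1.32, SE 0.15, edgeR adjusted p = 0.000427), and every alternative called it. In bulk tissue, fewer cells of a type and less RNA per cell cannot be told apart, and this holds for every gene here. The gene lies on chromosome 1, 169655501 to 169695813, plus strand.

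The other 4 fibroblast and pericyte genes of the set had log2 fold changes below 0 without a call. Pdgfrb, the PDGF receptor of pericytes, was at 47.2, 57.4 and 79.8 CPM with vehicle and 43.6, 41.7 and 58.7 CPM with TDB (log2 fold change -0.36, edgeR adjusted p = 0.276). Within a library, the ratio of Rgs5 to Pdgfrb was 1.28 to 1.77 in vehicle tumors and 0.718 to 0.840 in TDB tumors, so Rgs5 was lower also relative to this second pericyte gene. The fibroblast receptor Pdgfra (-0.10), smooth muscle actin Acta2 (-0.22) and desmin Des (-0.13) had adjusted p of 0.892, 0.565 and 0.657. Of 14 tested genes on a separate list of fibroblast, stellate and pericyte markers, 5 fell and 0 rose: Thy1, Mcam, Notch3, Higd1b and Gli1. Over all genes tested in tumor, 13.1% were called lower and 15.8% higher. The median log2 fold change of the list was -0.48. Higd1b, another pericyte marker, was at 1.79, 2.48 and 1.99 CPM with vehicle and 0.801, 1.00 and 1.22 CPM with TDB (log2 fold change -1.05, edgeR adjusted p = 0.0173). Mcam, an adhesion molecule of pericytes and endothelium, had a log2 fold change of -0.67 (edgeR adjusted p = 0.00632).

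The pericyte genes Kcnj8, Abcc9 and Cspg4 did not pass, with log2 fold changes of -0.03, -0.59 and -0.31 and edgeR adjusted p of 0.938, 0.196 and 0.376. Kcnj8 encodes a potassium channel subunit, Abcc9 its partner, and Cspg4 the NG2 proteoglycan. These 3 genes were singled out after their values were seen. Summed over its 21 genes the list stood at 471, 448 and 641 CPM in vehicle tumors and at 343, 366 and 438 CPM in TDB tumors, with no overlap. Endothelial markers gave 4 lower and 0 higher of 14, beside 13.1% called lower and 15.8% higher over all genes. Among the 4 were Kdr, the main VEGF receptor (log2 fold change -0.94, edgeR adjusted p = 0.00282), and Emcn (-0.92, adjusted p = 0.0139). The sum over the 14 endothelial markers overlapped between groups, at 176 to 278 CPM with vehicle and 141 to 230.0 CPM with TDB. Of 6 tested smooth muscle markers, Smtn fell (log2 fold change -0.53, adjusted p = 0.00264) and none rose.

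The upstream sequences of the 2 genes with the firmest opposite changes are given for 250 bases before the RefSeq start (GRCm38.p6, plus strand). That of Col15a1, whose difference between tissues passed the main test but not most alternatives (below), is given too. Capitals mark matches to the motifs searched, on either strand.
Timp3 (chr10:86300162-86300411): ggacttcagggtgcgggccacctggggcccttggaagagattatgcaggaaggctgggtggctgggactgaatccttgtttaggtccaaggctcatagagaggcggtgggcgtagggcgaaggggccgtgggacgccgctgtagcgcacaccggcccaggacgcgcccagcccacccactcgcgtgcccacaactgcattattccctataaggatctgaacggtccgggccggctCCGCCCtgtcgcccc
Rgs5 (chr1:169655251-169655500): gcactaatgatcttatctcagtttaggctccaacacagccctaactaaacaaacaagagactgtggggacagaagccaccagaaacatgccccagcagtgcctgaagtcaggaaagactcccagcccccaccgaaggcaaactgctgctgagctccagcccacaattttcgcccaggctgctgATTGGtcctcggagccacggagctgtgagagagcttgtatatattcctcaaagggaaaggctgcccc
Col15a1 (chr4:47207762-47208011): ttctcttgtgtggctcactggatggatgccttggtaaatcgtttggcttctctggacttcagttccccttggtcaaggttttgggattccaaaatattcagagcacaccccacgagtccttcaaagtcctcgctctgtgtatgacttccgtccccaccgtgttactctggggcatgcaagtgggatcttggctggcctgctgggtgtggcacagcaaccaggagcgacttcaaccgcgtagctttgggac

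The Timp3 sequence holds a GC box (GGGCGG, here as its complement) 15 bases before the RefSeq start. The Rgs5 sequence holds a CCAAT box (also as its complement) 67 bases before its RefSeq start, and the Col15a1 sequence none of the motifs given here. The GENCODE start of Timp3 (86300372) lies inside the sequence shown, before this GC box. That of Col15a1 (47208161) lies after the end of its sequence. RefSeq promoter windows of 300 bases (250 before the start to 50 after it) were present for 27 of the 43 symbols, in 31 entries. The core of the interferon-stimulated response element occurred in 3.23% of the entries, beside 3.44% of all 32851 windows. TGANTCA, the AP-1 site, occurred in 3.23%, beside 7.81%. CAGACA, a SMAD-type site of TGF-beta signaling, occurred in 35.5%, beside 21%. The GC box occurred in 61.3%, beside 35.7%, and CCAAT in 38.7%, beside 37.4%. Both strands were searched, and no motif is contained in another. A match is a run of letters and not a shown binding site.

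Of the 9 basement membrane genes, 2 fell in tumor and none rose, beside 13.1% called lower and 15.8% higher over all genes. Nid2 (nidogen 2), which links laminin to type IV collagen, was at 32.7, 33.6 and 45.3 CPM in vehicle tumors (37.2 ± 7.02, SD, n = 3) and at 16.1, 18.3 and 26.1 CPM in TDB tumors (20.2 ± 5.28, SD, n = 3). The groups did not overlap, and the level was 1.85-fold lower with TDB (log2 fold change -0.88, SE 0.21, edgeR adjusted p = 0.0177). The call was lost without TDB tumor 2 (adjusted p = 0.0786), without a count filter (0.0570) and in a fit over all 12 libraries (0.217). Nid2 lies on chromosome 14, 19751265 to 19811787, plus strand; 437 exon bases are shared with Rtraf on the opposite strand, which held 9914 counts against 4187 for Nid2, so reads of both could be mixed where strand was not used. Its paralog Nid1 had a log2 fold change of 0.25 (adjusted p = 0.628), and the ratio of Nid2 to Nid1 within a library was 0.406 to 0.579 in vehicle tumors and 0.205 to 0.239 in TDB tumors.

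Col18a1, the type XVIII collagen chain whose end fragment is endostatin, was at 41.7, 52.4 and 65.5 CPM in vehicle tumors and at 39.6, 32.9 and 38.8 CPM in TDB tumors. All treated tumors were below all controls, but by little for vehicle tumor 1. The level was 1.44-fold lower (log2 fold change -0.52, SE 0.16, edgeR adjusted p = 0.0464), just under the threshold. The call was lost without vehicle tumor 2 (adjusted p = 0.0997), vehicle tumor 3 (0.0649), TDB tumor 1 (0.0841), TDB tumor 2 (0.151) or TDB tumor 3 (0.0937). It was also lost with median-of-ratios size factors (0.0539), limma-voom (0.0526), no count filter (0.0602), log2 FPKM plus 1 (0.0754) or plus 0.1 (0.0675), and all 12 libraries (0.273). Col18a1 lies on chromosome 10, 77052178 to 77166548, minus strand.

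Col15a1, the type XV collagen of vessel basement membranes, was at 81.2, 78.4 and 127 CPM in vehicle tumors and at 48.0, 39.7 and 74.7 CPM in TDB tumors. No treated tumor reached a control, but the spread was wide (log2 fold change -0.82, SE 0.30, edgeR adjusted p = 0.0996). Without TDB tumor 3 it was called (log2 fold change -1.13, adjusted p = 0.0269). Lamb1, the laminin beta 1 chain, was at 189.8, 208 and 216 CPM with vehicle and 185, 175 and 185 CPM with TDB, again with no overlap (log2 fold change -0.17, adjusted p = 0.106). Upper quartile scaling called it (log2 fold change -0.25, adjusted p = 0.0314).

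The type IV collagen chains Col4a1 and Col4a2 form one protomer and are transcribed away from each other, with 22 exon bases shared. Col4a1 was at 567, 547 and 894 CPM in vehicle tumors and 502, 488 and 604 CPM in TDB tumors (log2 fold change -0.33, edgeR adjusted p = 0.263). Col4a2 had a log2 fold change of -0.08 (adjusted p = 0.806). Within a library the ratio of Col4a1 to Col4a2 was 2.04 to 2.11 in vehicle tumors and 1.66 to 1.87 in TDB tumors. The laminin chains Lama4 (-0.08) and Lamc1 (-0.24) had adjusted p of 0.654 and 0.292. Lama4 ranged from 227 to 303 CPM over the 6 tumors. Whether called or not, 6 of 43 genes of the set (14.0%) were lower in all TDB tumors than in all vehicle tumors (Col15a1, Col18a1, Lamb1, Nid2, Eln and Rgs5), where 23.1% of all genes were. The same 6 had an unadjusted p under 0.05, where 20.1% of all genes did. In the other direction there was 1 of 43 (2.33%), Timp3, beside 23% and 20.5%.

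Elastic fiber and crosslinking genes gave 1 call of 5, beside 28.8% of all genes called in either direction. Eln (elastin) was at 15.1, 13.7 and 30.7 CPM in vehicle tumors (19.8 ± 9.42, SD, n = 3) and at 8.58, 5.16 and 9.04 CPM in TDB tumors (7.59 ± 2.12, SD, n = 3). Treated tumors were all below controls, and vehicle tumor 3 was far above the other two. The level was 2.63-fold lower with TDB (log2 fold change -1.39, SE 0.38, edgeR adjusted p = 0.0390). Without vehicle tumor 3 the log2 fold change was -0.93 and the call stayed (adjusted p = 0.0169). The call was lost without vehicle tumor 1 (0.0525), TDB tumor 1 (0.0876), TDB tumor 2 (0.127) or TDB tumor 3 (0.0831), and with limma-voom (0.0502), no count filter (0.136) or log2 FPKM plus 1 (0.0706). Eln lies on chromosome 5, 134702593 to 134747323, minus strand.

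Fbn1 (fibrillin 1), the microfibril protein on which elastin is deposited, was at 47.2, 43.3 and 112 CPM with vehicle and 64.7, 79.8 and 123 CPM with TDB (log2 fold change 0.40, edgeR adjusted p = 0.572). Within a library the ratio of Eln to Fbn1 was 0.274 to 0.320 in vehicle tumors and 0.0647 to 0.133 in TDB tumors, with no overlap. The crosslinking enzyme Lox was at 29.7, 11.2 and 87.3 CPM with vehicle and 22.0, 55.1 and 76.7 CPM with TDB, the widest vehicle range of the group. Its log2 fold change of 0.26 had a 95% interval from -1.87 to 2.40, so neither direction could be seen at this spread. Its relatives Loxl1 (-0.47) and Loxl2 (0.05) had adjusted p of 0.661 and 0.945.

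**Figure D4:**
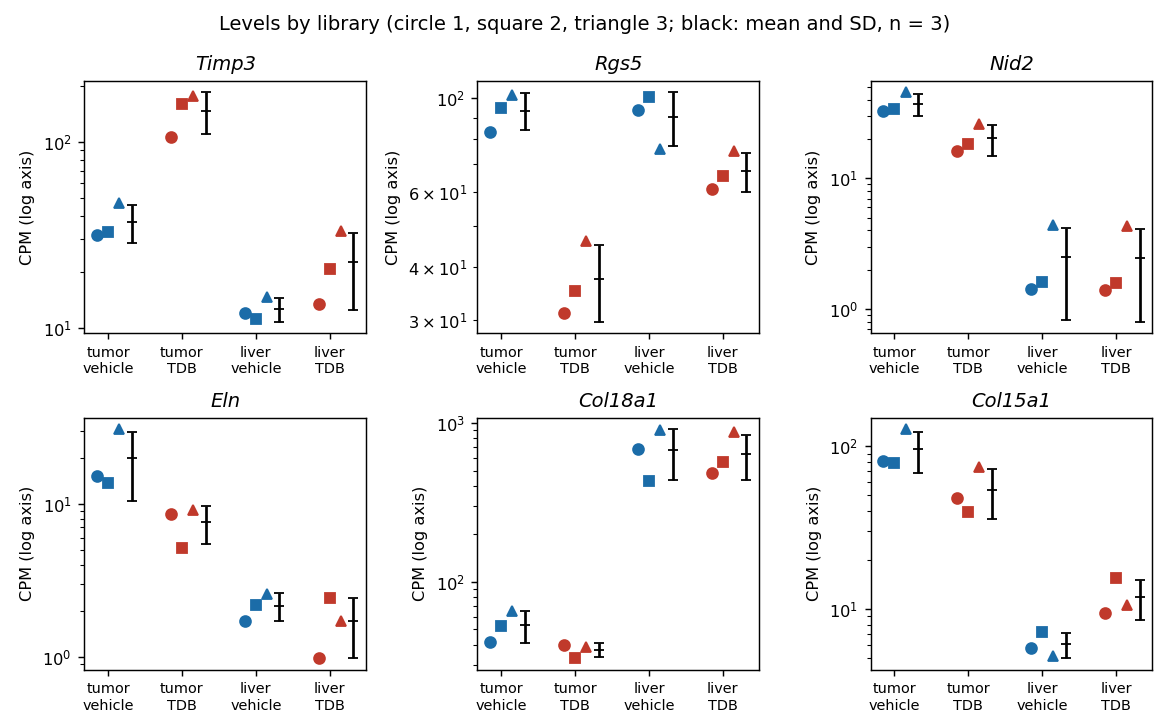
CPM by library (log axes; circle, square and triangle for libraries 1, 2 and 3; blue vehicle, red TDB; black mean and SD, n = 3) for the 5 genes called in tumor and for Col15a1. Timp3 rises from 31.6 to 46.8 CPM in vehicle tumors to 106 to 177 CPM in TDB tumors, and Col15a1 is lower in all TDB tumors and higher in all TDB livers.

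None of the 5 fibrillar collagen genes passed in tumor, and all 5 log2 fold changes were below 0, from -0.65 to -0.11. Col3a1 had the lowest p of them: it was at 269, 134 and 530.4 CPM with vehicle and 125, 150.5 and 321 CPM with TDB (log2 fold change -0.65, edgeR adjusted p = 0.496). The groups overlapped widely. Col1a1 and Col1a2, the chains of type I collagen, had log2 fold changes of -0.11 (95% interval -1.51 to 1.28) and -0.38 (-1.84 to 1.08). The ratio of Col1a1 to Col1a2 within a library was 1.03 to 1.19 in vehicle tumors and 1.21 to 1.35 in TDB tumors. Col5a1 and Col5a2, the type V chains that regulate fibril width, had log2 fold changes of -0.16 and -0.17.

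Of type VI, VIII and XII collagens none passed either. Col6a2 was at 74.1, 47.9 and 114 CPM with vehicle and 43.5, 41.0 and 78.7 CPM with TDB (log2 fold change -0.54, edgeR adjusted p = 0.391). Its partner chain Col6a1 had a log2 fold change of -0.48 (adjusted p = 0.475), and the third chain, Col6a3, of 0.05 (adjusted p = 0.884). Col8a1, a vessel wall collagen, had a log2 fold change of -0.28, and Col12a1, which sits on the surface of fibrils, of -0.39 with an interval from -2.32 to 1.53.

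Matrix glycoproteins and proteoglycans gave 0 calls of 9 in tumor. Sparc had the lowest p, at 430.2, 268 and 658 CPM with vehicle and 212, 274 and 450.2 CPM with TDB (log2 fold change -0.54, edgeR adjusted p = 0.408). Postn (periostin), made by activated fibroblasts, was at 132, 60.9 and 282 CPM with vehicle and 42.8, 80.3 and 140.3 CPM with TDB (-0.85, adjusted p = 0.421). Fn1, the cell-binding glycoprotein, was at 142, 141 and 386 CPM with vehicle and 225, 301 and 470.2 CPM with TDB. Its log2 fold change was 0.57 (adjusted p = 0.469); vehicle tumor 3 alone put the groups in overlap, and without it the value was 1.24 (adjusted p = 0.0586). Thbs1 was level, at 542, 481 and 905 CPM against 556, 642 and 743 CPM (log2 fold change 0.01, 95% interval -0.60 to 0.61). Thbs2 (-0.31), Tnc (-0.13), the proteoglycan Bgn (biglycan, 0.13), Dcn (-0.46) and Lum (-0.82) had adjusted p of 0.633 to 0.901. For Dcn and Lum the intervals ran from -3.48 to 2.56 and from -3.60 to 1.96.

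In liver, none of the 41 genes tested passed (edgeR), and each of the 16 alternatives run, DESeq2 and the 6 fits with a library left out among them, gave 0 as well. Of all 13657 genes tested there, 0.513% were called higher and 0.022% lower (0.535% in either direction), so few calls of any kind were made. Tnc and Lox were too low to test, at most 0.617 and 0.441 CPM. At an unadjusted p under 0.05 there were 2 genes higher (4.88%, beside 5.84% of all genes), Col15a1 and Timp3, and 1 lower (2.44%, beside 2.25%), Mmp2. The median log2 fold change was 0.04 for the set and 0.04 for all genes. Without TDB liver 3, the library highest of its group for 35 of the 43 genes (44.8% of all genes), the median of the set was -0.28. It was 0.19 without TDB liver 1, 0.12 without TDB liver 2 and 0.19 without vehicle liver 3. Without vehicle liver 1 or 2 it was -0.03 or -0.04. For 15 of the 41 genes the 95% interval lay wholly between -1 and 1.

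Col15a1 was higher in each TDB liver, at 5.78, 7.22 and 5.12 CPM with vehicle and 9.37, 15.5 and 10.6 CPM with TDB (log2 fold change 0.97, SE 0.29, edgeR adjusted p = 0.340). It was the only gene of the set with all treated livers above all controls (2.44% of 41, beside 9.11% of all genes). Timp3 was at 12, 11.2 and 14.7 CPM with vehicle and 13.5, 20.6 and 33.2 CPM with TDB, an overlap of a single pair of libraries. Its log2 fold change of 0.83 had an adjusted p of 0.593, and without TDB liver 3 it was 0.44. As in tumor, the ratio of Timp3 to Timp2 within a library did not overlap, at 0.616 to 0.831 with vehicle and 1.07 to 1.91 with TDB. Genes with all TDB livers below all controls were Dcn, Loxl1, Mmp2, Timp2 and Rgs5 (12.2% of 41, beside 5.46% of all genes). The highest TDB liver lay barely under the lowest control for Dcn (176.0 against 176.5 CPM), Rgs5 (75.2 against 75.7 CPM) and Timp2 (17.4 against 17.6 CPM). Rgs5 was at 94.0, 101 and 75.7 CPM with vehicle and 61.2, 65.5 and 75.2 CPM with TDB (log2 fold change -0.42, adjusted p = 0.689). Mmp2 was at 2.09, 1.68 and 2.29 CPM with vehicle and 1.06, 1.24 and 1.37 CPM with TDB (-0.72, adjusted p = 0.590).

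Loxl1 was at 0.936, 1.23 and 0.845 CPM in vehicle livers and 0.681, 0.603 and 0.529 CPM in TDB livers (log2 fold change -0.72, edgeR adjusted p = 0.698), levels at which few reads were counted. Dcn, at 183, 176 and 179.8 CPM with vehicle and 156, 153 and 176 CPM with TDB, differed by little (log2 fold change -0.15, SE 0.18). Fn1 showed how much TDB liver 3 weighed: it was at 573, 513 and 848 CPM with vehicle and 517, 694 and 2561 CPM with TDB (log2 fold change 0.96, adjusted p = 0.770). Of the collagens, Col4a1 had the largest log2 fold change in liver after Col15a1, at 0.90 (adjusted p = 0.750), with 17.9, 13.5 and 29.6 CPM against 15.4, 35.9 and 63.0 CPM. Col5a2 (0.45) and Col8a1 (0.52) had the lowest p of their groups, with adjusted p of 0.824 and 0.828. Col18a1, the leading member in liver, was at 687, 430.1 and 905 CPM against 481, 564 and 870.5 CPM (-0.08, adjusted p = 0.957). The deviations of all genes from the group mean were set against exon length in each library (Spearman's rho across genes, which are not independent). The rho was -0.59, -0.47 and 0.63 in TDB livers 1, 2 and 3. In vehicle livers 1, 2 and 3 it was 0.13, -0.45 and 0.47, and in tumor libraries it lay between -0.31 and 0.15. The part of length in the members' spread was not tested.

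The effect of the antibody was compared between tissues by the interaction over all 12 libraries. Col15a1 alone passed, with a tumor minus liver difference of -1.84 in log2 fold change (SE 0.41, 95% interval -2.73 to -0.95, edgeR adjusted p = 0.0345). All genes tested numbered 16557, of which 0.658% were called in this direction and 1.83% in the other (2.49% in either). At an unadjusted p under 0.05 the set had 2 genes in this direction, Col15a1 and Rgs5 (6.82% of all genes), and 1 in the other, Timp3 (5.72% of all genes). The gene was lower in 3 of 3 TDB tumors and higher in 3 of 3 TDB livers than any control of that tissue, while neither effect alone passed. It lies on chromosome 4, 47208161 to 47313167, plus strand. The difference did not pass without vehicle liver 1 (adjusted p = 0.0949), vehicle liver 2 (0.0501), vehicle liver 3 (0.0835), TDB liver 2 (0.0863), vehicle tumor 1 (0.0562), vehicle tumor 2 (0.0514), vehicle tumor 3 (0.0793), TDB tumor 1 (0.102) or TDB tumor 2 (0.0992), nor on log2 FPKM plus 1 (0.0713). It lay between -2.14 and -1.58 in all of the fits with a library left out.

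For the 5 genes called in tumor, the interaction did not pass, so a difference from liver was not shown. Rgs5 had a difference of -0.94 (edgeR adjusted p = 0.0891), and DESeq2 called it (adjusted p = 0.0128). Timp3 had a difference of 1.13 (adjusted p = 0.271), and without TDB liver 3 it was 1.59 (adjusted p = 0.0277). The differences of Nid2 (-0.87), Eln (-1.09) and Col18a1 (-0.48) had adjusted p of 0.713, 0.463 and 0.775. The median difference over the set was -0.45, beside -0.12 over all genes. With a library left out, the median of the set ranged from -0.75 (without TDB tumor 3) to -0.02 (without vehicle tumor 3). It was -0.03 without TDB liver 3 and -0.70 without vehicle tumor 2.

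Related matrix genes outside the set gave calls in tumor and none in liver by edgeR, where 0 to 2 genes per list and direction had an unadjusted p under 0.05. Of those named here, DESeq2 called Fbln5 lower (log2 fold change -0.97, adjusted p = 0.0160) and Cd44 higher (1.29, adjusted p = 0.00106) in liver. Cd44 was called in 3 of 16 alternatives there, the edgeR fit over all 12 libraries among them (1.26, adjusted p = 0.00439). Across all 15454 genes tested in tumor, 15.8% were called higher and 13.1% lower. Of the 34 related genes named as called in tumor, 15 were called in every alternative. Among the others, Adamts5 was called in 9 of 16, Fst in 10 of 15, Lama1 in 11 of 16, and Col9a2 and Crtap in 12 of 16. Of 22 tested genes of collagen processing, 3 rose and 2 fell. Adamts3, a procollagen protease, was at 21.8, 21.2 and 35.1 CPM with vehicle and 66.5, 65.3 and 75.0 CPM with TDB (log2 fold change 1.40, edgeR adjusted p = 0.00217). Loxl4, a lysyl oxidase relative, rose from at most 0.397 CPM to 1.26 to 1.61 CPM (adjusted p = 0.00795), and the lysyl hydroxylase Plod3 rose by little (log2 fold change 0.41, adjusted p = 0.00281). Crtap and Colgalt1, which modify collagen chains, fell (-0.33 and -0.32, adjusted p = 0.0185 and 0.0108). The median of the list was -0.20. Of 20 other collagens 0 rose and 3 fell (median -0.44): Col13a1 (-2.01, adjusted p = 0.00245), Col9a3 (-0.75, adjusted p = 0.000510) and Col9a2 (-0.45, adjusted p = 0.0241).

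Of 13 other basement membrane genes, Lama1 rose (log2 fold change 0.49, edgeR adjusted p = 0.0210), while Npnt and Smoc1 fell (median of the list -0.27). Npnt (nephronectin), a ligand of integrin alpha 8, was at 865, 885 and 882 CPM with vehicle and 446, 378 and 415 CPM with TDB (-1.09, adjusted p = 3.08e-05). Its libraries were close to each other within each group, unlike those of most of the set. Smoc1 had a log2 fold change of -1.08 (adjusted p = 0.0302). Of 35 other matrix glycoproteins and proteoglycans 3 rose and 5 fell, with a median of -0.47, beside 15.8% called higher and 13.1% lower over all genes. Tgfbi, a matrix protein induced by TGF-beta and made by macrophages among others, was at 14.8, 6.5 and 15 CPM with vehicle and 176, 157 and 106 CPM with TDB (log2 fold change 3.59, adjusted p = 0.00161).

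Emilin2 (log2 fold change 1.95, edgeR adjusted p = 0.00626) and Ecm1 (1.52, adjusted p = 0.00362) were the others that rose. The elastic fiber protein Fbln5 (fibulin 5) was at 259, 254 and 397 CPM with vehicle and 137, 72.5 and 126 CPM with TDB, with no overlap (-1.44, adjusted p = 0.0177). The small proteoglycans Aspn (-2.17, adjusted p = 0.00362) and Prelp (-1.59, adjusted p = 0.0436) also fell. Of 28 other proteases and inhibitors, 2 rose and 3 fell (median -0.13), beside 15.8% called higher and 13.1% lower over all genes. Mmp25, a leukocyte metalloproteinase, rose by 2.83 (adjusted p = 0.00122) and Plaur, the urokinase receptor, by 0.86 (adjusted p = 0.00916) on the log2 scale. Serpine2 (-0.82), Mmp15 (-0.77) and Adamts5 (-0.69) fell, with adjusted p of 0.00383, 0.00388 and 0.0393.

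Of 25 TGF-beta pathway genes 7 rose and 2 fell, beside 15.8% called higher and 13.1% lower over all genes, and the median of the list was 0.22. Tgfbr3, the accessory receptor betaglycan, was at 29.3, 32.8 and 37.7 CPM with vehicle and 71.2, 62.8 and 51.7 CPM with TDB (log2 fold change 0.90, edgeR adjusted p = 0.00153). The signaling receptor Tgfbr2 fell, from 316, 337 and 327 CPM to 230.0, 226 and 230.1 CPM (-0.51, adjusted p = 0.000535). Nrros, which anchors latent TGF-beta on myeloid cells, rose (1.13, adjusted p = 0.00846), as did the activin inhibitor Fst (1.99, adjusted p = 0.0288), while the activin subunit Inhbb fell (-1.31, adjusted p = 0.0180). Of 24 matrix receptors 3 rose and 5 fell (median -0.07), beside the same shares over all genes. Sdc3 (syndecan 3) was at 46.8, 43.8 and 65.5 CPM with vehicle and 196, 238 and 235 CPM with TDB (log2 fold change 2.10, adjusted p = 0.000119).

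The collagen receptor Ddr1 (log2 fold change 0.78, edgeR adjusted p = 0.00123) and the hyaluronan receptor Cd44 (0.62, adjusted p = 0.00376) rose with Sdc3. Itga7, a laminin receptor subunit, fell (-1.48, adjusted p = 0.00209), as did Itgb5 (-0.49, adjusted p = 0.00219) and Sdc1 (-0.48, adjusted p = 0.00161). Of the 4 PDGF ligands, Pdgfc fell (-0.52, adjusted p = 0.00367). Leukocyte markers moved in the same tumors: T cell markers gave 9 higher of 10, macrophage markers 6 of 10 and neutrophil markers 3 of 6, with none lower. Over all genes, 15.8% were called higher and 13.1% lower. T cell markers summed to 2.98 to 5.72 CPM with vehicle and 17.6 to 29.2 CPM with TDB, and macrophage markers to 225 to 342 CPM and 561 to 653 CPM. Markers of mammary tumor epithelium gave 2 lower and 0 higher of 11. The part of these cells in the changes of Timp3 and of the related genes was not tested.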

How the data were processed

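Counts of 12 bulk RNA-seq libraries (3 in each of 4 groups, taken from the titles) were analysed. The authors deposited whole-number counts per Ensembl gene, not normalized, and FPKM values. GSNAP, limma and GRCm38 are named per the submitters' processing notes; for the counter and strand setting the sources used here name nothing. The deposited FPKM values use the genomic span (within 1% of it for 84.3% of 8785 genes, and of exon length for 0.865%), so they served only as an alternative, as log2 of FPKM plus 1 or 0.1. This scale understates changes of low genes.

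Models of the counts used edgeR 4.0.16 (R 4.3.3) with TMM scaling, filterByExpr (minimum count 10, minimum total 15), robust quasi-likelihood F test and Benjamini-Hochberg adjustment over all genes, threshold 0.05. Each tissue was fitted on its 6 libraries and the interaction on 12. CPM use TMM library sizes within a tissue; levels per kb use GENCODE M21 union exon length. SE is the log2 fold change divided by the root of F. Each treatment had 3 mice by the deposited design, and p-values rest on the spread among their libraries. No 2 libraries of a group held the same counts. Libraries held 18460159 to 29396324 counts, and levels below 1 CPM rest on few reads.

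Alternatives were other scalings, DESeq2 1.42.0, limma-voom and log2 FPKM (limma 3.58.1), other filters, a replicate block, 1 fit over 12 libraries and each library left out. Scripts were tested on simulated counts. All 43 genes were named; library values were given for called genes and for the lowest p of each role, and of each related list up to 3 called genes per direction. The members and lists were chosen with earlier results of these data known. Ratios within a library were taken for chosen pairs of members only, with no share over other pairs beside them. Library numbers were checked for pairing. Deviations of same-numbered vehicle and TDB libraries, which come from different mice, correlated at 0.07, 0.03 and 0.30 in tumor and at -0.11, 0.52 and 0.66 in liver. Same-numbered tumor and liver libraries of a treatment correlated at -0.06 to 0.11, and no label ties them to a mouse. With 3 mice per treatment, a tumor and a liver library may share a mouse. The interaction was fitted as if none did. A further motif that was searched is not reported here.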

Additional observations from a re-analysis of the deposited data

Results flagged for a closer look

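In 4 genes named above the effect of the antibody differed between tumor and liver by the interaction test (edgeR, adjusted p under 0.05), with 3 libraries in each of the 4 groups. Tgfbi had a tumor minus liver difference of 3.43 in log2 fold change (adjusted p = 0.00122): it was higher in 3 of 3 TDB tumors, while livers held 36.3 to 53.6 CPM with vehicle and 44.1 to 55.0 CPM with TDB. Itga7 had a difference of -1.75 (adjusted p = 0.00875), with 6.88 to 9.59 CPM in vehicle livers and 8.47 to 10.3 CPM in TDB livers. Col15a1 had a difference of -1.84 (adjusted p = 0.0345), and is the only member of the 43-gene set among them. Its difference was called in 10 of 21 alternatives, beside 21 of 21 for Tgfbi and 19 of 21 for Itga7. Col9a3 had a fitted difference of -5.72 (adjusted p = 0.0283), but its vehicle livers held no count and its TDB livers at most 0.132 CPM, so the size of this value depends on the prior count of the fit and is no measure of a fold.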

How the results depend on the processing

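Of the 5 genes called in tumor 2 (Timp3 and Rgs5) were called under all 16 alternatives, and of the 38 others 30 were never called. In liver 41 of 41 were never called. Of the 34 related genes named as called in tumor, 15 were called under every alternative. Genes called in tumor over all genes (2437 higher, 2019 lower) became 1068 and 627 when fitted with all 12 libraries, and upper quartile scaling moved the share of higher calls from 54.7% to 41.0% (45.1% and 44.7% on log2 FPKM plus 1 and 0.1). Members lower in tumor numbered 2 with limma-voom, 1 without a count filter, 2 on log2 FPKM plus 1 and 2 with all 12 libraries, instead of 4. In liver, genes higher (70) and lower (3) were 271 and 49 by DESeq2, 133 and 12 without a filter, 25 and 1 on log2 FPKM plus 1, 282 and 41 with all 12 libraries, and 5 were lower with upper quartile scaling. For the interaction, genes higher (303) and lower (109) were 560 and 296 by DESeq2, 557 and 509 on log2 FPKM plus 1, and 484 and 293 on FPKM plus 0.1; members lower (1) were 2 by DESeq2 and 0 on log2 FPKM plus 1. Leaving out each library in turn gave ranges of 1797 to 2717 higher and 1145 to 2143 lower in tumor (members 1 to 2 and 1 to 3), 14 to 151 and 0 to 12 in liver (members 0 and 0), and 196 to 525 and 45 to 177 for the interaction (members 0 to 1 and 0 to 1). On log2 FPKM plus 1 and plus 0.1 the uncalled interaction of Aspn reversed from 4.11 to -0.32 and -1.15 and that of Mmp25 from -2.15 to 0.28 and 1.30; both are near 0 counts in liver. The cause of the other moves was not tested.

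No label pairs the library numbers across groups, so the replicate block is given only as an alternative. With a replicate block the tumor members called were 3 higher and 8 lower, liver genes 291 higher and 59 lower with no member, and interaction genes 216 higher and 42 lower with 0 members; Col15a1 had an adjusted p of 0.000381 in tumor and 0.121 for the interaction, and Cd44 of 0.0288 in liver. Not every library correlated best with its own number (vehicle tumor 2 with TDB tumor 1, 0.23).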
